A study of Mus musculus with 14 samples.

Results

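The miR-106a to miR-363 cluster is a run of microRNA hairpins on the mouse X chromosome, and 5 of its hairpin genes (Mir106a, Mir20b, Mir19b-2, Mir92-2 and Mir363) had a probe set of their own among the 19938 genes measured. Members were the probe sets that the platform annotation gives to 1 of these symbols, which was 1 probe set each. The cluster was singled out with earlier results of these arrays in view, in which Mir363 was among the largest falls after 12 h of induction. Which values chose the 5 members is not recorded. The 12 h contrast was taken as used, so its values are a description here, without a p-value for any member. The test is given for 24 h, whose group means come from other arrays. Its estimate of the spread comes from all 12 arrays of the fit, those of the 12 h contrast included. Whether the choice also drew on the 24 h values is not known, so the 24 h p-values of the members may not be free of selection.

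The arrays measured gene expression in mouse embryonic stem (ES) cells left to differentiate in embryoid bodies. These are aggregates that form mesoderm and, from it, early blood and endothelial precursors. The induced groups received doxycycline at 1 µg/ml, which switches on ER71 (encoded by Etv2), GATA2 and, by the sample titles and genotype labels, Scl (encoded by Tal1). They comprised 1 array of day 2.25 with 6 h of doxycycline, 3 of day 2.5 with 12 h and 3 of day 3 with 24 h. The control groups were cells of the same lines and days without doxycycline (1, 3 and 3 arrays), with the genotype label wild-type. The line was iEGS for replicates 1 and 2 and iB1 for replicate 3. Doxycycline without the factors was not analysed here, so each effect includes any effect of the drug. The design text speaks of independent experiments, but nothing says whether each line is a single clone. All cells had been kept on feeder fibroblasts before differentiation.

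MicroRNA clusters are transcribed as 1 long primary RNA, from which the nuclear enzyme Drosha cuts each hairpin. Dicer then frees the mature strand, which pairs with messenger RNAs mainly through its seed. The cluster is an X-linked copy of the miR-17 to miR-92 cluster, known for keeping cells in cycle and for lowering inhibitors of growth and pro-death factors. The probe sets are annotated to the hairpin genes and detect RNA that carries the hairpin sequence. Mature microRNAs were not measured separately.

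The mature sequences are shown because they define which microRNAs outside the cluster share a member's likely targets. They are from RefSeq (GRCm38.p6) and are written 5′ to 3′, with the seed (bases 2 to 8) in capitals. All 5 members matched the table. miR-363-3p and miR-92a-3p share their seed with miR-367 and miR-25 of other clusters:
miR-363-3p: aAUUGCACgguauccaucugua
miR-92a-3p: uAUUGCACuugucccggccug
miR-367-3p: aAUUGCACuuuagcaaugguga
miR-25-3p: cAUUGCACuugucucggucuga

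Mir20b and Mir106a carry the seed of the miR-17 family, and Mir19b-2 carries that of miR-19. miR-106a-5p and miR-17-5p differ at 1 base, A10U, with positions counted from the 5′ end and the base of miR-106a-5p first:
miR-20b-5p: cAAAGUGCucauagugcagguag
miR-106a-5p: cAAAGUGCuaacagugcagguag
miR-17-5p: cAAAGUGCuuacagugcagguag
miR-19b-3p: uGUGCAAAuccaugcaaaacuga

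The mature strands of Mir92-2 and Mir19b-2 are identical to those of Mir92-1 and Mir19b-1 of the other cluster. Signal of these hairpins may thus be shared between copies, and their values are uncertain to that extent. The 6 annotated hairpins of the X-linked cluster lie on the minus strand within 875 bases, at chrX:52741693-52742567. In the direction of transcription they run from Mir106a through Mir18b, Mir20b, Mir19b-2 and Mir92-2 to Mir363, which is the last. Mir18b was not matched to a probe set with a single symbol and was not analysed here. The mature strands lie at chrX:52742541-52742563 (miR-106a-5p), chrX:52742159-52742181 (miR-20b-5p), chrX:52741991-52742013 (miR-19b-3p), chrX:52741854-52741874 (miR-92a-3p) and chrX:52741697-52741718 (miR-363-3p). The hairpin of Mir363 (chrX:52741693-52741767) carried the main result and is given whole, with the mature strand in capitals:
Mir363: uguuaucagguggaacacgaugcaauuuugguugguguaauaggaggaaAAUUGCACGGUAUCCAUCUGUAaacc

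Across genes, each pair of arrays correlated at 0.951 to 0.995, and 1 array stood somewhat apart. This was induced 24 h replicate 3, with a mean correlation of 0.966 and the smallest SD of signal (1.91 on the log2 scale). Without it the 24 h difference of Mir363, given below, was -2.78. Of 5 pluripotency and epiblast markers (Pou5f1, Sox2, Nanog, Utf1 and Fgf5), 4 fell at 24 h and 2 at 12 h. Their mean log2 level was 7.69 to 8.11 on the induced 24 h arrays and 9.23 to 9.64 on the day 3 controls, and 8.93 to 9.27 at 12 h, against 9.63 to 9.99 on the day 2.5 controls. Of 5 endothelial markers 4 rose at each of these times, with mean levels of 7.74 to 8.67 on the induced 24 h arrays and 5.06 to 5.18 on the day 3 controls. At 24 h, 3 of 4 mesoderm markers fell (5.85 to 6.09, against 8.45 to 8.72), 2 of 5 endoderm markers fell (4.67 to 4.92, against 6.41 to 6.52) and 2 of 5 blood markers rose (4.84 to 5.10, against 4.14 to 4.35). The day 2.5 controls were below the day 3 controls in mesoderm markers (6.24 to 6.88) and in endoderm markers (5.42 to 5.73). At 12 h, 2 of the 4 mesoderm markers fell and 1, Kdr, rose. Of 7 feeder fibroblast markers 1 rose (4.94 to 5.32 in induced cells, 4.78 to 5.10 in controls), and of 3 neural markers 0 passed in limma. Most pluripotency, mesoderm and endothelial markers, and some of endoderm and blood, thus moved at 24 h along with the results below. The part of the cell type markers in these results was not tested. In bulk RNA, fewer cells of a type and less RNA per cell cannot be told apart.

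After 24 h of induction, Mir363 fell against the day 3 control, and no other member passed the test. Mir363 had log2 expression values of 4.55, 4.01 and 3.82 on the induced 24 h arrays, against 6.26, 7.18 and 7.72 on the day 3 control arrays. Every induced array lay below every control array, and the nearest pair was more than 1 log2 unit apart. The means were 4.13 ± 0.379 in induced cells and 7.06 ± 0.739 in controls (SD, n = 3 each). This is a difference of -2.93 ± 0.298 on the log2 scale (SE), or 7.61-fold (limma, adjusted p = 1.93e-05 over all genes). Lower calls were made for 3.43% of all genes, and for 1 of 5 members. Another member, Mir19b-2, was lower at an unadjusted p under 0.05, and 0 were higher in limma at that level. Within a replicate number the 24 h difference was -1.71 and -3.17 in the line iEGS and -3.90 in iB1. Without replicate 3, which leaves the line iEGS alone, it was -2.44 (limma, adjusted p = 0.00195). With only the day 3 arrays in the fit it was -2.93 ± 0.34 (limma, adjusted p = 0.00103).

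Mir92-2, whose mature strand shares the seed of miR-363, stayed near the low end of the scale. It had 3.56, 3.79 and 3.76 on the induced 24 h arrays, against 3.82, 3.83 and 4.07 in day 3 controls. The groups did not overlap, but by a margin of a few hundredths. The difference was -0.21 ± 0.158, with a 95% interval of -0.54 to 0.13 (limma, adjusted p = 0.579).

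Mir19b-2, the copy of miR-19b on the X chromosome, had 2.64, 2.75 and 2.92 on the induced 24 h arrays, against 3.03, 3.14 and 3.29 in day 3 controls. All induced arrays were below all controls here too. The difference was -0.38 ± 0.168, with a 95% interval of -0.74 to -0.02, and did not pass over all genes (limma, adjusted p = 0.274). Non-overlap of this kind, seen for 3 of the 5 members, was found for 10.9% of all genes.

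Mir20b, of the miR-17 seed, had 3.14, 4.02 and 4.10 on the induced 24 h arrays, against 3.62, 3.40 and 4.16 in day 3 controls. The groups overlapped throughout. The difference was 0.03 ± 0.273, with a 95% interval of -0.56 to 0.61 (limma, adjusted p = 0.975), and its sign turned when arrays were centred on their median or normalized again.

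Mir106a, the first hairpin of the cluster, had 2.92, 3.35 and 3.55 on the induced 24 h arrays, against 3.11, 3.60 and 3.64 in day 3 controls. These groups overlapped as well. The difference was -0.18 ± 0.221, with a 95% interval of -0.65 to 0.30 (limma, adjusted p = 0.747). The median difference over the 5 members was -0.21, and that over all genes was -0.004.

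**Figure D1:**
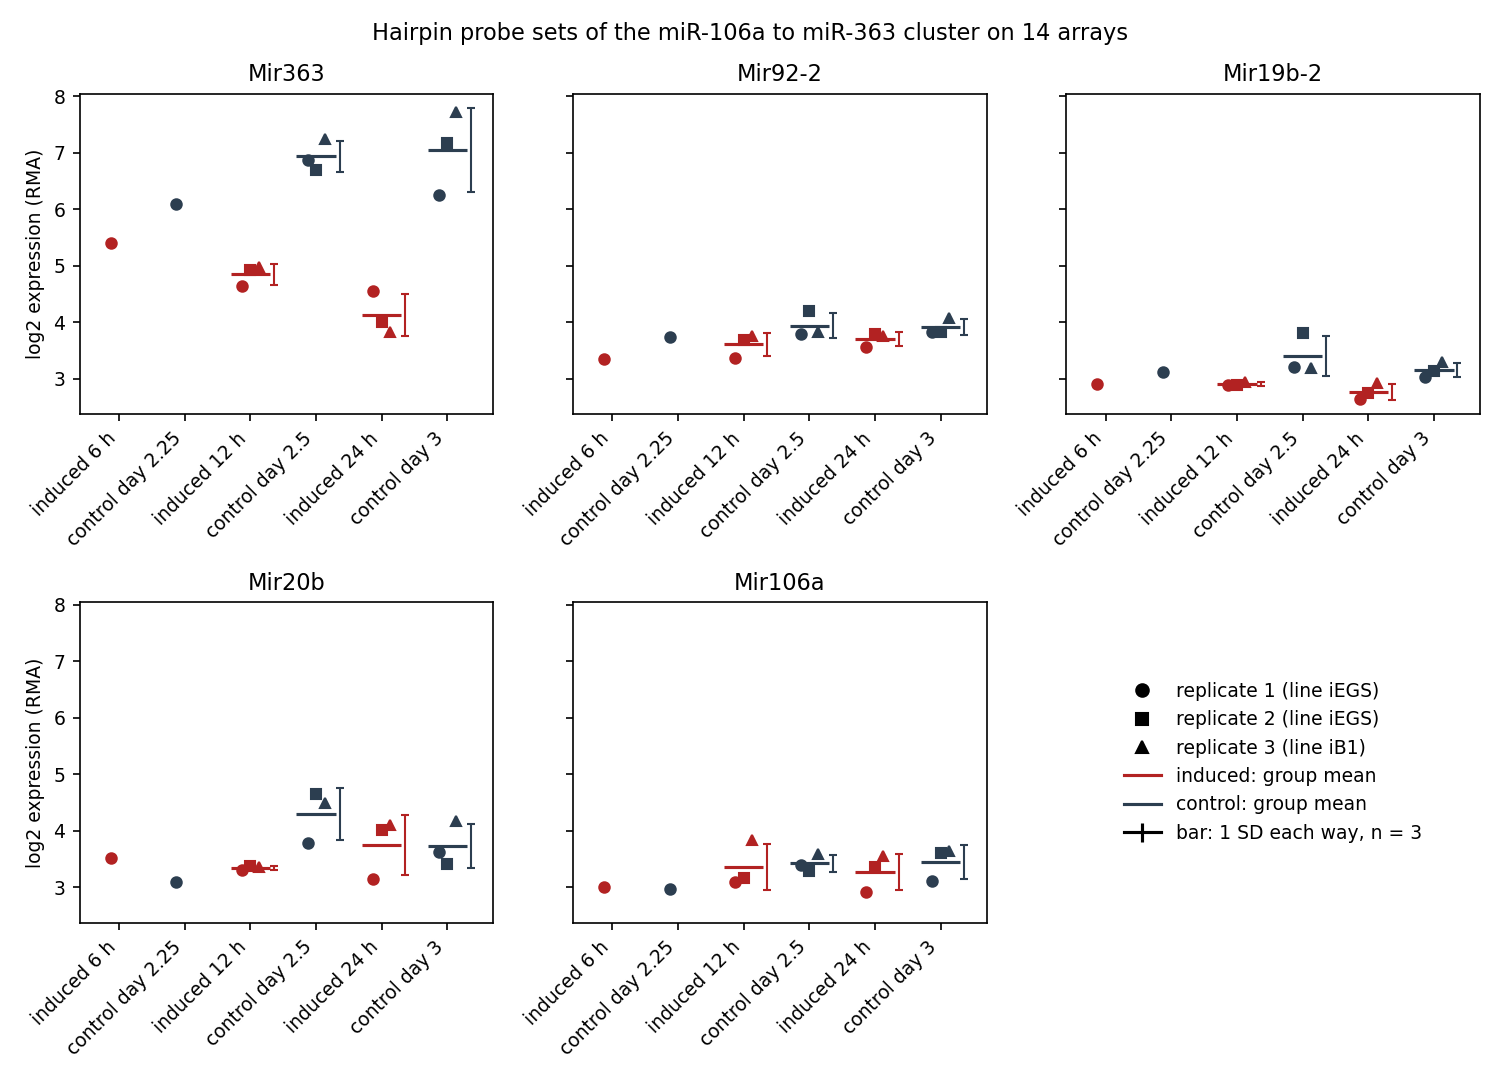
Log2 expression (y axis) of each hairpin probe set on the 14 arrays by group (x axis), with induced groups in red, controls in dark blue, a symbol for each replicate number, horizontal lines for group means and bars of 1 SD each way (n = 3). Mir363 lies between 3.82 and 4.98 on the induced 12 h and 24 h arrays and between 6.26 and 7.72 on their controls, while the other members stay below 4.65.

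The other members had lower signal than most genes. The mean of Mir363 over the 14 arrays lay at percentile 52.5 of the means of all genes, while those of Mir92-2, Mir20b, Mir106a and Mir19b-2 lay at percentiles 18.7, 18.1, 12.1 and 8.60. Probe sets differ in how strongly they bind, so these ranks show distance from the floor of the scale and give no order of abundance between hairpins. At 24 h, 2.74% of genes below the median signal were called in either direction, and 8.17% of those above it. On the induced 24 h arrays Mir363 itself came down to percentiles as low as 14.8, against up to 80.3 on a control array. The fold changes are those of RMA values, which understate changes near the floor.

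At 12 h, the contrast taken as used in the choice, all 5 members had a lower mean in induced cells. Mir363 had 4.64, 4.93 and 4.98 on the induced 12 h arrays, against 6.87, 6.70 and 7.24 in day 2.5 controls. The difference was -2.09 ± 0.298, or 4.26-fold, and it was alike in iEGS (-2.23 and -1.77) and iB1 (-2.26). Mir20b had 3.30, 3.37 and 3.35 on the induced 12 h arrays, against 3.78, 4.65 and 4.48 in day 2.5 controls. Its difference was -0.96 ± 0.273, the next in size, without overlap between the groups.

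The smaller 12 h differences were -0.50 ± 0.168 for Mir19b-2, -0.33 ± 0.158 for Mir92-2 and -0.06 ± 0.221 for Mir106a. Mir19b-2 had 2.89, 2.88 and 2.94 on the induced arrays, against 3.20, 3.81 and 3.19 in controls. Mir92-2 had 3.37, 3.69 and 3.76 on the induced arrays, against 3.79, 4.19 and 3.83 in controls. Only Mir106a overlapped between the groups, with 3.10, 3.16 and 3.83 in induced cells and 3.39, 3.29 and 3.58 in controls. At the call rule used for all genes (limma, adjusted p under 0.05), 1 of 5 members was lower at 12 h, where 0.577% of all genes were. Of all genes, 7.72% had their 12 h arrays all below the controls. The count was 2, Mir363 and Mir20b, with a replicate block or without replicate 1, and 0 without replicate 2. Since this contrast was taken as used in choosing the cluster, nothing is read from these counts.

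The earliest arrays have no replicates. After 6 h Mir363 was at 5.40, against 6.09 in the day 2.25 control, a log2 difference of -0.69 (1.61-fold lower). Of all genes, 0.602% were as low or lower in that comparison. Mir92-2 was at 3.35 after 6 h and 3.74 in the control, and Mir19b-2 at 2.91 and 3.11. Mir20b went the other way, with 3.51 after 6 h and 3.10 in the control, and Mir106a was at 3.01 and 2.97. With 1 array a group no test was possible.

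Ordered by level, Mir363 stood lowest in induced 24 h cells (4.13), then in induced 12 h cells (4.85), induced 6 h cells (5.40), the day 2.25 control (6.09), the day 2.5 control (6.94) and the day 3 control (7.06). The day 2.5 and day 3 controls, side by side in that order, overlapped. The difference between them was 0.12 ± 0.298, later minus earlier. The induced 24 h arrays were all below the induced 12 h arrays, by 0.72 ± 0.298 on average. Both changes share arrays with the 12 h contrast and are given without a test. The effect of Mir363 at 24 h minus that at 12 h was -0.84 ± 0.421, and that of Mir20b 0.99 ± 0.385. These differences contain the 12 h values and are given without a test.

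Members moved together only in part. Over the 14 arrays Mir363 correlated with Mir19b-2 at r = 0.719 (Spearman 0.855), with Mir92-2 at 0.557 (0.640), with Mir20b at 0.337 (0.385) and with Mir106a at 0.276 (0.402). Mir92-2 and Mir19b-2 correlated at 0.746 (0.749). These values describe arrays that share treatment, day and line, and probe sets of neighbouring hairpins, and are no test.

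Other microRNA genes were set beside the cluster at 24 h. Of 297 microRNA genes, 6 fell in limma (2.02%), namely Mir363 and all 5 genes of the miR-302 and miR-367 cluster, a cluster known from pluripotent cells. Mir367, whose mature strand has the seed of miR-363, had 3.75, 4.66 and 4.04 on the induced 24 h arrays, against 6.00, 7.79 and 7.08 in day 3 controls. It fell by 2.80 ± 0.514 (limma, adjusted p = 0.0036), which did not hold without replicate 2 or without replicate 3 (adjusted p up to 0.106). Mir302c had 4.89, 4.51 and 4.75 on the induced 24 h arrays, against 6.45, 7.59 and 6.91 in day 3 controls. It fell by 2.27 ± 0.299 (limma, adjusted p = 0.000214) and Mir302a fell by 2.36 ± 0.468 (adjusted p = 0.00627, lost without replicate 2). Without replicate 2, 2 of the 5 remained past the test, Mir302b and Mir302c. The control means of all 5 were higher on day 3 than on day 2.5. For Mir302c the mean was 5.38 in day 2.5 controls, 6.98 in day 3 controls and 4.72 in induced 24 h cells. For Mir367 these means were 5.22, 6.95 and 4.15, and for Mir363 they were 6.94, 7.06 and 4.13. The lone day 2.25 control array had 4.37 for Mir302c, 4.12 for Mir367 and 6.09 for Mir363. For Mir302a, Mir302b and Mir302d that array had 5.18, 3.73 and 4.77, with induced 24 h means of 4.98, 3.48 and 4.81.

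At 12 h the 2 clusters differed in their values. The 5 miR-302 and miR-367 genes had differences between 0.05 and 0.58, with 0 past the test in limma in either direction and 0 at an unadjusted p under 0.05. Mir367 had 4.23, 5.97 and 6.44 on the induced 12 h arrays, against 4.73, 5.15 and 5.78 in day 2.5 controls, while Mir363 was lower on all induced arrays. Whether the 12 h effects of Mir363 and Mir367 differ was not tested.

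The paralogous clusters had no member past the test. In the miR-17 to miR-92-1 cluster, 0 of 5 measured hairpins passed at 24 h or 12 h in limma, with 1 lower at an unadjusted p under 0.05 at 24 h and none at 12 h. The lower one was Mir18 (-0.69 ± 0.289), whose groups overlapped. Mir17 differed by -0.09 ± 0.14 and Mir20a by -0.45 ± 0.214 at 24 h. Mir20a had 4.45, 4.12 and 4.31 on the induced 24 h arrays, against 4.87, 4.51 and 4.85 in day 3 controls. All its induced arrays were thus below all controls, as for 10.9% of all genes. The host transcript Mir17hg differed by -0.21 ± 0.303. In the miR-106b to miR-25 cluster, 0 of 3 passed, with 1 higher at an unadjusted p under 0.05 at 24 h (Mir106b, 0.37 ± 0.169). Mir25, of the miR-363 seed, differed by -0.003 ± 0.219. Mir92b and Mir32, of that seed too, differed by 0.37 ± 0.277 and 0.55 ± 0.284. Mir363 differed by -2.93 at 24 h, and the difference between it and these paralogs was not tested.

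**Figure D2:**
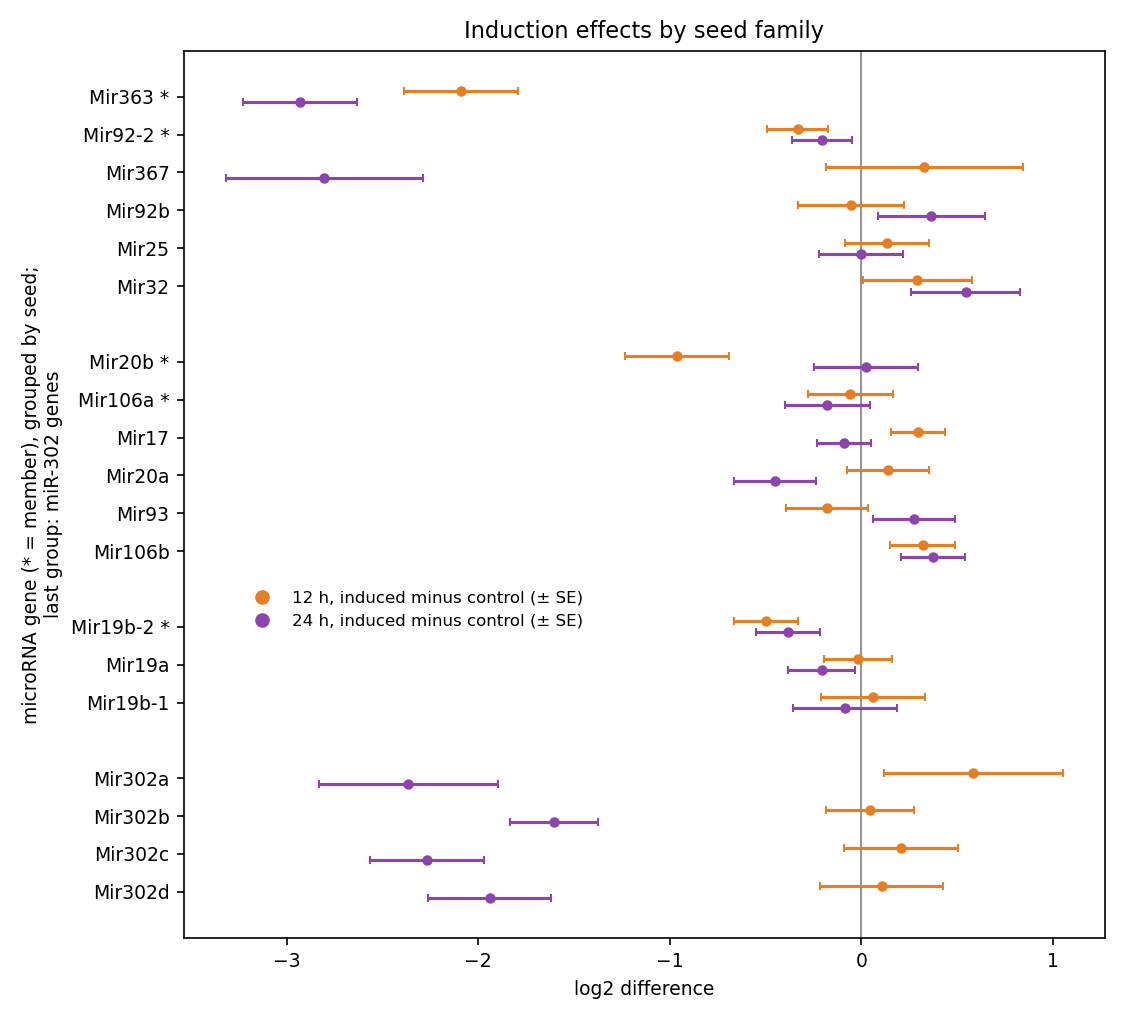
Log2 differences (x axis, ± SE) of microRNA genes at 12 h (orange) and 24 h (purple), induced minus control, in rows grouped by the seed of the mature strand, with the members starred and the miR-302 genes last. Mir363 (-2.09 and -2.93) is the only gene of its group far below 0 at both times, while Mir367 is at 0.33 at 12 h and -2.80 at 24 h.

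Genes on either side of the cluster on the X chromosome were measured as well. Of 9 measured neighbours, 4 fell and 1 rose at 24 h, where 3.43% of all genes fell and 2.03% rose. The glypican genes Gpc4 and Gpc3, which encode heparan sulphate proteoglycans of the cell surface, lie on the side of Mir363. Gpc4 had 5.26, 5.24 and 4.68 on the induced 24 h arrays, against 7.05, 6.84 and 7.06 in day 3 controls. It fell by 1.92 ± 0.229 at 24 h (limma, adjusted p = 8.78e-05), and the 12 h fall was 1.08 ± 0.229 (adjusted p = 0.0285). Gpc3 had 8.88, 9.16 and 9.05 on the induced 24 h arrays, against 10.23, 9.87 and 10.14 in day 3 controls. It was 1.05 ± 0.155 below the day 3 control at 24 h (adjusted p = 0.000581) but 0.41 ± 0.155 higher than the control at 12 h, without passing the test (adjusted p = 0.441). The mean of Gpc3 was 8.92 in day 2.5 controls, 9.03 in induced 24 h cells and 10.08 in day 3 controls. Its induced 24 h level was thus not below that of the day 2.5 controls.

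On the side of Mir106a, Ccdc160 fell by 0.70 ± 0.166 at 24 h (limma, adjusted p = 0.0201), and the 12 h fall was 0.74 ± 0.166 (adjusted p = 0.0400). Its 24 h call was lost in 7 of 16 alternatives, with adjusted p up to 0.358. Phf6, which encodes a PHD finger protein of the nucleus, fell by 0.67 ± 0.141 at 24 h (adjusted p = 0.00936) and differed by -0.56 ± 0.141 at 12 h (adjusted p = 0.0861). It was named as the last of the 4 after its values were seen.

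Hprt, the purine salvage gene next along the chromosome, rose. It had 7.82, 8.27 and 7.37 on the induced 24 h arrays, against 6.26, 6.09 and 6.10 in day 3 controls, a difference of 1.67 ± 0.252 (limma, adjusted p = 0.000697). The hairpins Mir450b, Mir450-1, Mir450-2 and Mir542 beyond it did not pass, with 24 h differences between -0.54 and 0.25. The neighbours thus did not share a direction. Without replicate 2 or without replicate 3 the fallers at 24 h were 2, Gpc4 and Gpc3, and the 12 h calls of Gpc4 and Ccdc160 were both lost in each case.

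**Figure D3:**
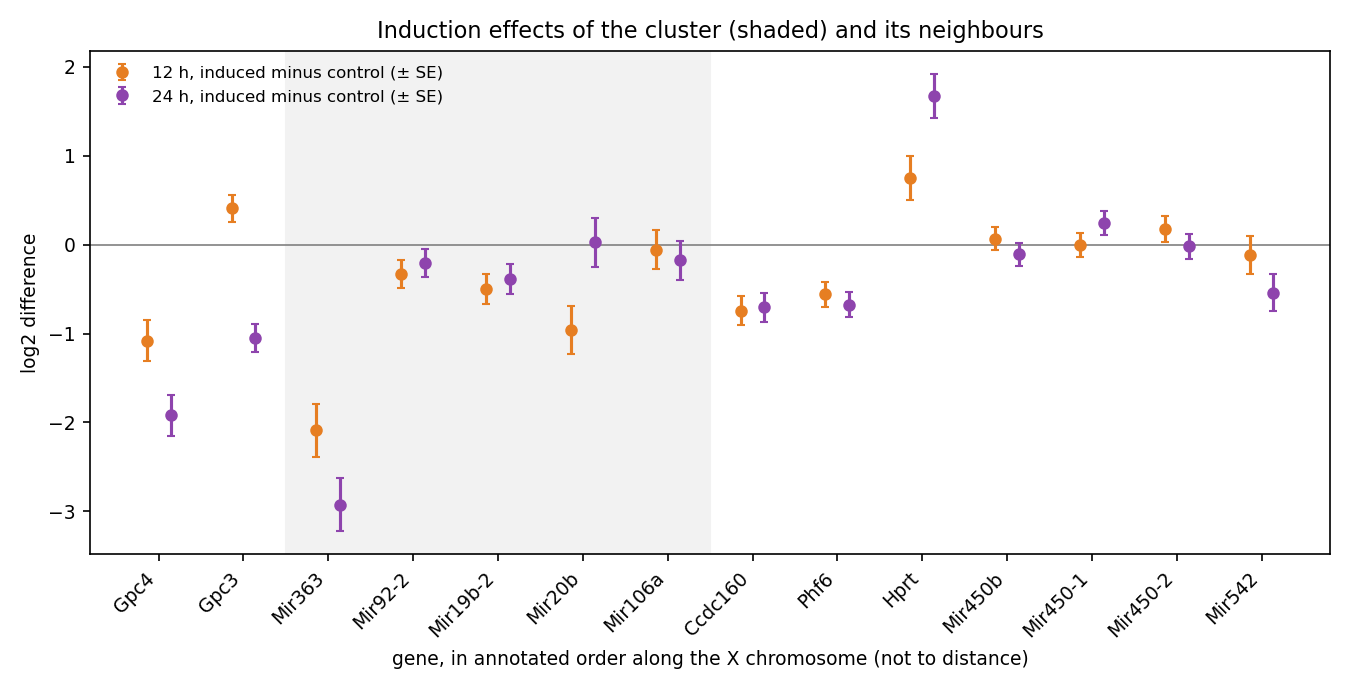
Log2 differences (y axis, ± SE) at 12 h (orange) and 24 h (purple), induced minus control, for the members (shaded) and the measured neighbours in annotated order along the X chromosome (x axis, not to distance). Mir363 is the lowest point at both times, the other members lie between -0.96 and 0.03, and Hprt is the highest at 1.67.

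Genes of the MYC and E2F families, with the MYC partner Max, were listed next, as some of them are known to drive the paralogous cluster. Of 7 MYC and E2F genes, 2 fell and 0 rose at 24 h (0 higher at an unadjusted p under 0.05). Mycl fell by 1.14 ± 0.147 (limma, adjusted p = 0.000181) and Mycn by 0.81 ± 0.173 (adjusted p = 0.0105). The Mycn call was lost in 3 of 16 alternatives, those without replicate 2, without replicate 3 and without replicate 1 of the day 3 controls. Myc itself went the other way without passing, by 0.31 ± 0.203 (limma, adjusted p = 0.503). It had 9.90, 10.06 and 9.87 on the induced 24 h arrays, against 9.82, 9.72 and 9.36 in day 3 controls. Of 10 microRNA processing genes, 0 passed at 24 h in limma, with 2 lower and 0 higher at an unadjusted p under 0.05. Dicer1 differed by -0.09 ± 0.238, and Xpo5, which exports hairpins from the nucleus, by -0.21 ± 0.152. The median 24 h difference of the list was -0.24, with -0.004 over all genes.

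Genes that have been reported as targets of microRNAs with the members' seeds, in human or mouse cells, were taken as 3 lists. Of 21 measured genes in the miR-17 family list, 3 rose and 2 fell at 24 h, with a median of 0.03. Runx1, a factor of the first blood cells, rose by 1.72 ± 0.188 (limma, adjusted p = 3.85e-05). Efnb2, the arterial ligand ephrin-B2, rose by 1.01 ± 0.125 (adjusted p = 0.000122). Tgfbr2, a TGF-beta receptor that is also in the miR-19 list, rose by 0.66 ± 0.144 (limma, adjusted p = 0.0122). That call was lost in 4 of 16 alternatives, with those without replicate 2 and without replicate 3 among them. Itgb8, an integrin subunit, fell by 1.05 ± 0.164 (adjusted p = 0.000921), and the cyclin gene Ccnd2 fell by 0.74 ± 0.163 (adjusted p = 0.0133). The call of Ccnd2 was lost in 5 of 16 alternatives, again with those without replicate 2 and without replicate 3 among them. With the replicate block 6 of the 21 rose and 3 fell.

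In the miR-19 list 1 of 6 genes rose, Tgfbr2, and 0 fell (1 lower at an unadjusted p under 0.05), with a median of -0.22. In the list for the seed of miR-363 and miR-92, 1 of 11 rose and 0 fell (2 lower at an unadjusted p under 0.05), with a median of 0.04. The riser was S1pr1, a sphingosine phosphate receptor of endothelium, by 1.17 ± 0.183 (limma, adjusted p = 0.00102). With the replicate block Hand1 fell in this list as well. The median of all genes was -0.004, and the shares called in either direction, 1 of 11, 1 of 6 and 5 of 21, stand against 5.46% of all genes. Of genes with signal above the median 8.17% were called, and of those below it 2.74%. Tgfbr2 is counted in both the miR-17 and the miR-19 share. Runx1, Efnb2 and S1pr1 are genes of blood or endothelium. Runx1 is also 1 of the 5 blood markers above, and 4 of 5 endothelial markers rose on the same arrays. Their part in these counts was not tested.

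**Figure D4:**
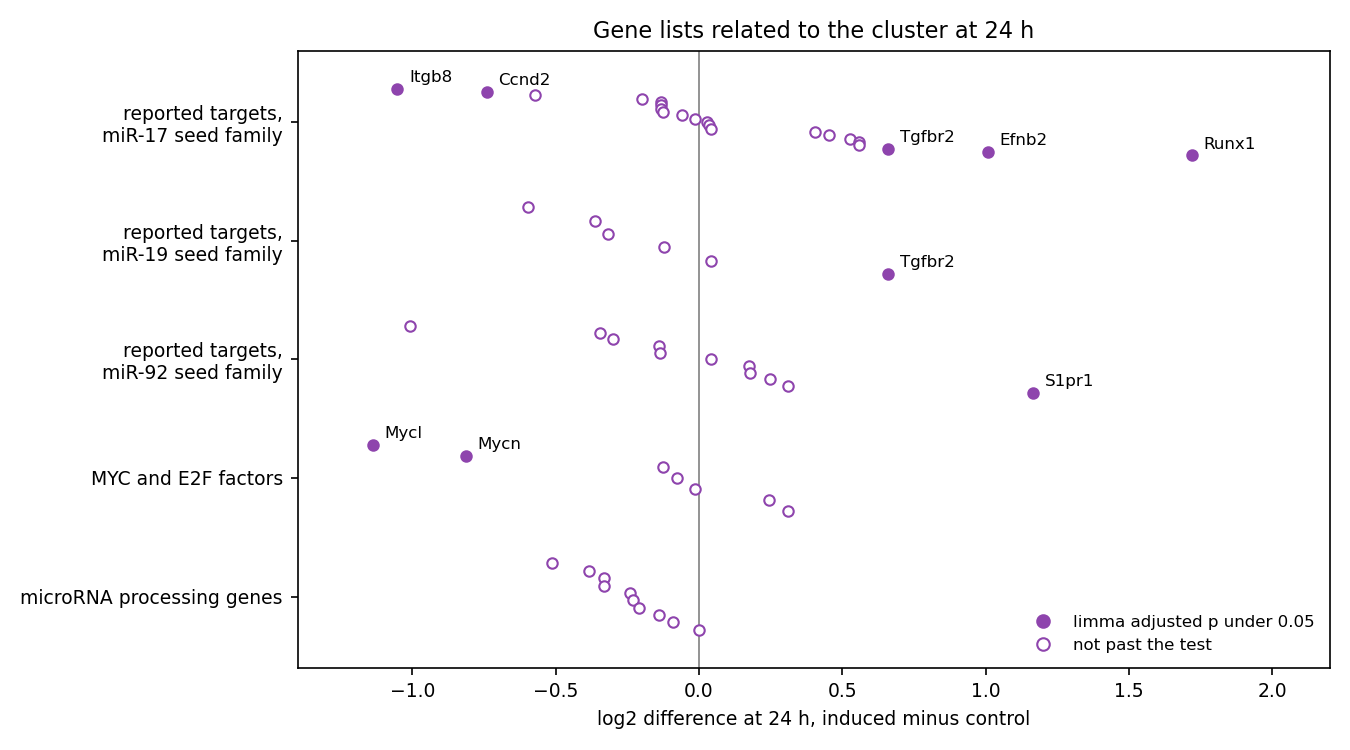
Log2 differences at 24 h (x axis), induced minus control, for the genes of 5 lists in rows, with a filled point where limma's adjusted p was under 0.05. Runx1 (1.72) is the highest point and Mycl (-1.14) the lowest, and the 10 processing genes are all open.

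The genes whose pattern over the 14 arrays was most like that of Mir363 were sought among 9968 genes with signal above the median. Nrep came first (Pearson r = 0.969, Spearman 0.965), followed by Cdca7l (0.959 and 0.974), Pphln1 (0.953 and 0.903), Fst, which encodes the activin antagonist follistatin (0.944 and 0.890), and the pseudokinase gene Trib2 (0.942 and 0.873). Their 24 h differences ran from -4.55 for Fst to -0.89 for Trib2. The most opposite patterns were those of Nfe2l2, the factor NRF2 of the oxidative stress response (-0.957 and -0.934), the interferon gamma receptor gene Ifngr2 (-0.955 and -0.903) and Stxbp2 (-0.947 and -0.916).

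With the mean of the 5 members in place of Mir363, Vrtn (r = 0.898), Crabp2 (0.895), Parm1 (0.894), Pnpla3 (0.888) and Syp (0.887) were most alike. Eng, the endothelial receptor endoglin (-0.935), Exoc6 (-0.934) and Rhbdf1 (-0.917) were most opposite. None of the genes is in both sets. These correlations describe arrays that share treatment and day, and carry no p-value.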

How the data were processed

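The deposited values are log2 expression values of 35556 probe sets on 14 arrays, to which the authors applied RMA. The submitters' processing notes name Affymetrix Expression Console as the program, and no version is given in the sources used here. RMA corrects background, quantile normalizes and summarizes probes, so shared changes are lost and dim signals compressed. Probe sets with 1 symbol (21789) were reduced to the one with the highest mean per gene (19938 genes), with microRNA genes as RefSeq (GRCm38.p6) classes them. The array's genome build is not stated, so coordinates are those of RefSeq for the printed sequences only.

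The 12 arrays of the groups of 3 entered 1 fit in limma 3.58.1 under R 4.3.3 (group means, eBayes, 8 residual and 6.05 prior degrees of freedom), with Benjamini-Hochberg adjustment over all genes and calls under 0.05. The code was tested on simulated data. Errors of differences are standard errors. Same-numbered arrays deviated together from their group means, with correlations across genes of 0.573, 0.344 and 0.262 at 12 h and 0.517, 0.157 and 0.261 at 24 h, so the replicate number was tried as a block. The other alternatives were renormalization, median centring, a filter on dim genes, the compared groups alone, all probe sets, other eBayes settings and leaving out replicates. The number of arrays limits the precision.

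Members and lists were chosen with earlier results of these data known. From each list up to 3 risers and 3 fallers past the test at 24 h are named, or else the 2 genes of highest signal, and the 5 most alike and 3 most opposite genes. Hairpins and genes beyond these were named after their values were seen. Among the list genes, Cdkn1a, Zcchc11, Mir92-1, Mir290, Mir291a, Mir294, Mir295, Mir322, Mir351 and Mir503 found no match among the single-symbol probe sets and were not analysed here.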

Additional observations from a re-analysis of the deposited data

Results flagged for a closer look

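The induction effect differed between the times for a pair of the genes named, by limma's test of the difference over all genes. For Mir302c the effect at 24 h minus that at 12 h was -2.48 ± 0.423 (limma, adjusted p = 0.0163), with effects of 0.21 at 12 h and -2.27 at 24 h. For Gpc3 it was -1.46 ± 0.219 (limma, adjusted p = 0.00647), with effects of 0.41 at 12 h and -1.05 at 24 h. The control means of both genes were higher on day 3 than on day 2.5, 6.98 against 5.38 for Mir302c and 10.08 against 8.92 for Gpc3. The induced means at 12 h and 24 h were 5.58 and 4.72 for Mir302c and 9.33 and 9.03 for Gpc3.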

How the results depend on the processing

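The number of members called at 24 h was 1, Mir363, in each of 16 alternatives. Its 24 h effect ran from -3.54 to -2.44 over them, with limma adjusted p between 2.89e-07 and 0.0123. The replicate block left it at -2.93 (adjusted p = 4.06e-06). The 24 h effect of Mir20b, 0.03, turned to -0.0982 with quantile normalization again and to -0.0351 with each array centred on its median. It lay between -0.27 and 0.33 when replicates were left out. That of Mir106a lay between -0.35 and 0.000579, the last without replicate 1 of the induced 24 h group. The number of members called at 12 h, an alternative added after seeing the data, was 2 with the replicate block and 0 to 2 when replicates were left out. Nothing is read from that number, since the 12 h contrast was taken as used in choosing the cluster. The members other than Mir363 could not be fitted with genes below the 40th percentile of signal left out. Over all genes, 1088 were called at 24 h, 669 when the fit held only the arrays of day 3, and 392 to 1889 when replicates were left out (392 without replicate 2, 476 without replicate 3, and 1889 without replicate 1 of the induced 24 h group). Mir92-2, Mir19b-2, Mir20b and Mir106a had low signal, where RMA understates changes.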
